A study of Rattus norvegicus with 8 samples.

Results

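The genes described here are 34 cell cycle and DNA replication genes, taken as a list of symbols and matched to the probe sets of the Affymetrix Rat Gene 1.0 array by annotation, with the brightest probe set kept where a gene had several. A uniquely named probe set was found for 31 of the 34, among 14506 genes measured in all. Mcm3, Mcm4 and Mki67 were not analysed here. By role, 9 of the 31 act in S phase, 3 regulate entry into it from G1, and 19 act in G2 and mitosis. The series measured gene expression in the hypothalamus of female Sprague-Dawley rats at 21 days of age, on 8 arrays in 4 groups of 2. Con-s and Con-l were offspring of control mothers given saline or leptin, and CR-s and CR-l were offspring of calorie-restricted mothers given saline or leptin. Restriction meant a diet with 50% fewer calories, begun at gestation day 11, kept up to day 21 and continued after birth. The pups' treatment window, with either saline or leptin, ran over postnatal days 2 to 8. One note in the record writes Con-r for the leptin-treated controls, and the sample titles, which say Con-l, were followed here. Neither the number of animals behind an RNA sample nor the litters they came from are stated, so every p-value measures only the spread between these samples.

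Cells that divide switch on these genes in waves. Cyclin D and cyclin E kinases release the E2F factors in G1, and E2F then drives the genes for the replicative helicase, the sliding clamp and the enzymes that make deoxynucleotides. Later, the MuvB complex with B-Myb and FoxM1 drives the G2 and mitosis genes through an element called the cell cycle genes homology region (CHR), often found near CCAAT boxes that bind NF-Y. In the weanling hypothalamus nearly all neurons have left the cell cycle, and the dividing cells are mostly glial precursors, together with tanycytes, microglia and vessel cells. Leptin, the hormone of fat tissue, curbs feeding through receptors in the hypothalamus and surges in the newborn rodent.

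The promoters of both classes are shown because the S phase and mitosis genes are set against each other below. RefSeq (rat assembly GRCr8) gave a promoter for 25 of the 34 genes. It gave none for Ccna2, Rrm2, Ccnd1, E2f1, Aurkb, Foxm1, Tpx2, Ube2c and Mcm4. The 250 bases before each annotated start were searched on both strands for 3 elements. CHR was searched as TTTGAA or, in its variant form, as TTCGAA. The CCAAT box was searched by its own letters. E2F was searched as TTTCCCG, in its second form as TTTGGCG, and in its remaining form as TTTCGCG. A CHR match was present in 8 of 15 mitosis promoters (53.3%), in 3 of 9 S phase promoters (33.3%) and in 17.4% of all 33469 promoters in the table. A CCAAT match was present in 11 of the 15 mitosis promoters (73.3%), in 6 of the 9 S phase promoters (66.7%) and in 34% of all promoters. An E2F match was present in 2 of the 15 mitosis promoters (13.3%), in 5 of the 9 S phase promoters (55.6%) and in 4.7% of all promoters. The lines give the last 120 bases before the start, 5′ to 3′ on the strand of the gene, with CHR and CCAAT matches of 5 mitosis genes in capitals. They lie at chr10:84473094-84473213 (Top2a, minus strand), chr20:19265173-19265292 (Cdk1, plus strand), chr8:79981659-79981778 (Ccnb2, minus strand), chr5:137255800-137255919 (Cdc20, minus strand) and chr1:143659361-143659480 (Prc1, plus strand). On the strand shown, TTCAAA is TTTGAA read from the other strand, and ATTGG is CCAAT read from the other strand.
Top2a: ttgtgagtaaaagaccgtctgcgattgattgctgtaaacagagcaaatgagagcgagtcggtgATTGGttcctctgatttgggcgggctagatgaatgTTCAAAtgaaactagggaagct
Cdk1: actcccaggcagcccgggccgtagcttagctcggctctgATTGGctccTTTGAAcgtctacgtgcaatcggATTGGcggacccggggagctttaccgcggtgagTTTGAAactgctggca
Ccnb2: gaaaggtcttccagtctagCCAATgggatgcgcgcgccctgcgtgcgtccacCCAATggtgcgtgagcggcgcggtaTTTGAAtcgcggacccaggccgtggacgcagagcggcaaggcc
Cdc20: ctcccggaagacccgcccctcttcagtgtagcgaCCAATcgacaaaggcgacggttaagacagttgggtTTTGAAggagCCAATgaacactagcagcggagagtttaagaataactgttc
Prc1: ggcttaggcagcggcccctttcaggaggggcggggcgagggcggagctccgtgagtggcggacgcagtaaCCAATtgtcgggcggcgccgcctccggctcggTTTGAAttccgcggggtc

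Each of these 5 stretches holds both a CHR and a CCAAT match. The next lines give 4 S phase promoters in the same way, with E2F and CCAAT matches in capitals. They lie at chr4:122918095-122918214 (Mcm2, minus strand), chr19:13488693-13488812 (Mcm5, plus strand), chr12:22163179-22163298 (Mcm7, minus strand) and chr9:120776084-120776203 (Tyms, minus strand). In Mcm2 a pair of E2F matches on opposite strands overlap, and in Mcm7 an E2F match is directly followed by a CCAAT match, so that the capitals run on.
Mcm2: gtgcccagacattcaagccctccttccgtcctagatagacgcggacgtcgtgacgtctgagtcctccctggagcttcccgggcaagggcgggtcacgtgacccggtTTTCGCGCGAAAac
Mcm5: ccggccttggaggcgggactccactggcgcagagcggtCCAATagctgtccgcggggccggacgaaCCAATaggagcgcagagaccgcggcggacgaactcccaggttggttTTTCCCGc
Mcm7: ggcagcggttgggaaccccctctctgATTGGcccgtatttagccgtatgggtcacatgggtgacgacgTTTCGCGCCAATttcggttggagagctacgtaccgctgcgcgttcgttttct
Tyms: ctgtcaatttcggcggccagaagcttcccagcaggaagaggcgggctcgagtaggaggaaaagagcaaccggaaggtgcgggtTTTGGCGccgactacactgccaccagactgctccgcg

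A match describes these letters only, and no match says nothing about binding of the factor.

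**Figure D1:**
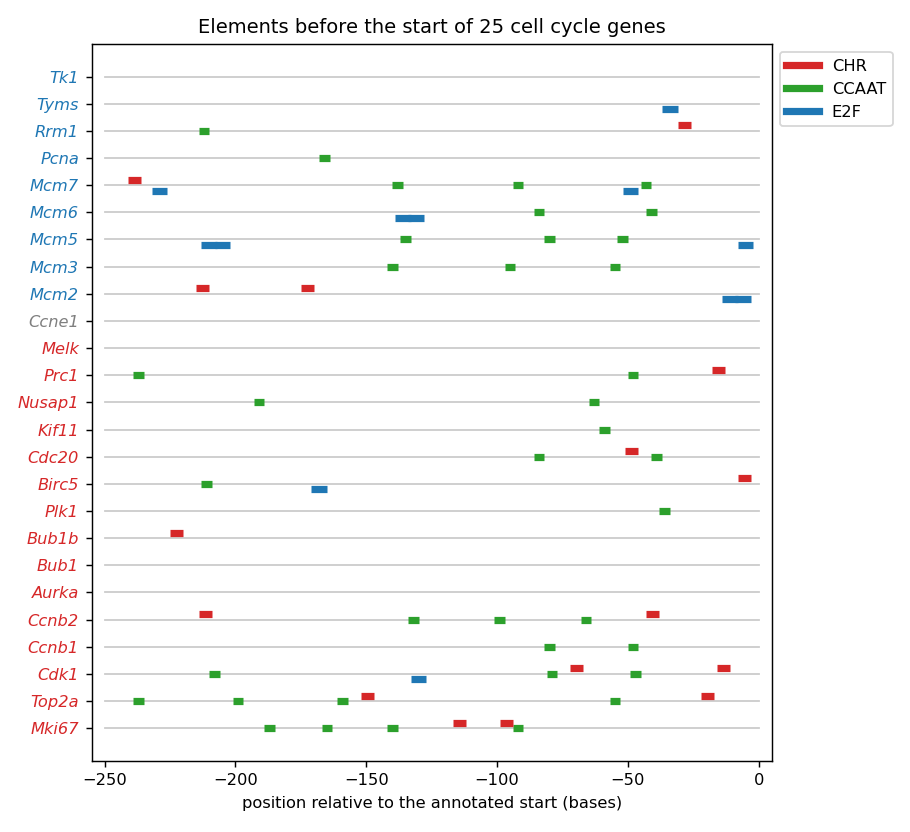
Positions of CHR (red), CCAAT (green) and E2F (blue) matches on either strand in the 250 bases before the annotated start of 25 cell cycle genes, 1 row per gene, with S phase names in blue, the G1/S regulator in grey and mitosis names in red; the x axis is the distance from the start in bases. CHR matches are present in 8 of the 15 mitosis rows and E2F matches in 5 of the 9 S phase rows; Mcm3 and Mki67 have a promoter here but no array value.

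Values below are log2 of the deposited RMA signal, in the order replicate A then B. Median signal over genes was 171 to 178 on the linear scale across the 8 arrays. The mean log2 signals of 15 hypothalamic neuron markers ran from 6.35 (Pomc) to 12.08 (Sst), beside a median of 7.45 over all genes. No criterion was set for them, so the identity of the tissue was not tested. Many cell cycle genes were dim. The 95th percentile of the mean signals of 1052 olfactory receptor genes, which the hypothalamus is not expected to use, was 5.86 on the log2 scale, and 8 of the 9 S phase genes, all 3 regulators and 12 of the 19 mitosis genes lay above it by their mean. Melk, Bub1b, Cdk1, Kif11, Bub1 and Mcm5 lay below it on all 8 arrays, Nusap1 was above it on 1 array and Ccna2 on 2, so the differences of these 8 genes come from dim probe sets and their size is uncertain. Mean log2 signals spanned 5.73 to 8.63 among S phase genes and 3.82 (Melk) to 7.41 (Foxm1) among mitosis genes. The median absolute difference between replicates over the 31 genes was 0.08 to 0.11 log2 in the 4 groups. CR-s replicate B stood apart from the other arrays, with the narrowest interquartile range over genes (2.75, against 2.82 to 2.90 log2) and a score of -0.12 on the second principal component, against -0.02 to 0.04.

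The main pattern among the 31 genes followed the diet of the mother. With both treatments averaged (4 CR arrays against 4 Con arrays), 3 genes fell in the restricted offspring: Top2a (1.55-fold), Rrm2 (1.35-fold) and Ccna2 (1.34-fold). The mean signal of Ccna2 (5.69) lay below the olfactory receptor level, as did all 4 of its CR arrays and 2 of the 4 CR arrays of Top2a, so their folds are those of dim signals. No gene of the set rose, and 1 of them, Aurkb, had a large difference upward that missed the threshold. The 3 calls come from limma with Benjamini-Hochberg adjustment at 0.05 over all 14506 genes, a rule that 1.21% of all genes passed. Of the 31 genes, 27 were lower in CR, whereas 49.7% of all genes were. At an unadjusted limma p under 0.05, 16 of the 31 (51.6%) were lower, beside 9.04% of all genes, and 1 was higher, beside 6.71% of all genes. All 4 CR arrays lay below all 4 Con arrays for 11 of the 31, beside 6.67% of all genes, and above them for 1, beside 4.52% of all genes. Without CR-s replicate B, 28 of the 31 were lower, 14 of them (45.2%) at an unadjusted p under 0.05, beside 8.32% of all genes, and 11 had all CR arrays below all Con arrays, beside 9.18% of all genes.

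The differences were larger among the mitosis genes than among the S phase genes, and the gap between the classes was not tested. Among the 19 mitosis genes, 17 were lower in CR, 12 of them (63.2%) at an unadjusted p under 0.05, and the median difference was -0.24. Among the 9 S phase genes, 7 were lower, 3 of them (33.3%) at an unadjusted p under 0.05, and the median difference was -0.08. The median over all genes was 0.00. The mitosis median rests on dim probe sets. It was -0.15 over the 12 genes above the olfactory receptor level by their mean over all 8 arrays. Of these 12, Top2a, Ccnb1 and Plk1 had CR means below that level (5.77, 5.79 and 5.84), so they passed it through their higher Con arrays. The mitosis median was 0.31 over the only 2 genes in the upper 60% of all genes by mean signal, Aurkb and Foxm1. Leaving out each array in turn, the median difference ran from -0.23 to -0.17 for mitosis genes and from -0.14 to -0.06 for S phase genes. The median over all genes stayed at 0.00. Without CR-s replicate B the mitosis and S phase medians were -0.23 and -0.08, and without CR-s replicate A they were -0.205 and -0.14. The number of S phase genes at an unadjusted p under 0.05 depended on which array was left out, and was mostly smaller than with all arrays. The 7 measured mitosis genes with a CHR match differed by -0.64 (Top2a) to -0.02 (Birc5). The 7 with a promoter but no such match differed by -0.33 (Kif11) to 0.08 (Melk). The 2 sets overlapped in part, with Top2a and Cdk1 below the shared range and Melk above it.

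**Figure D2:**
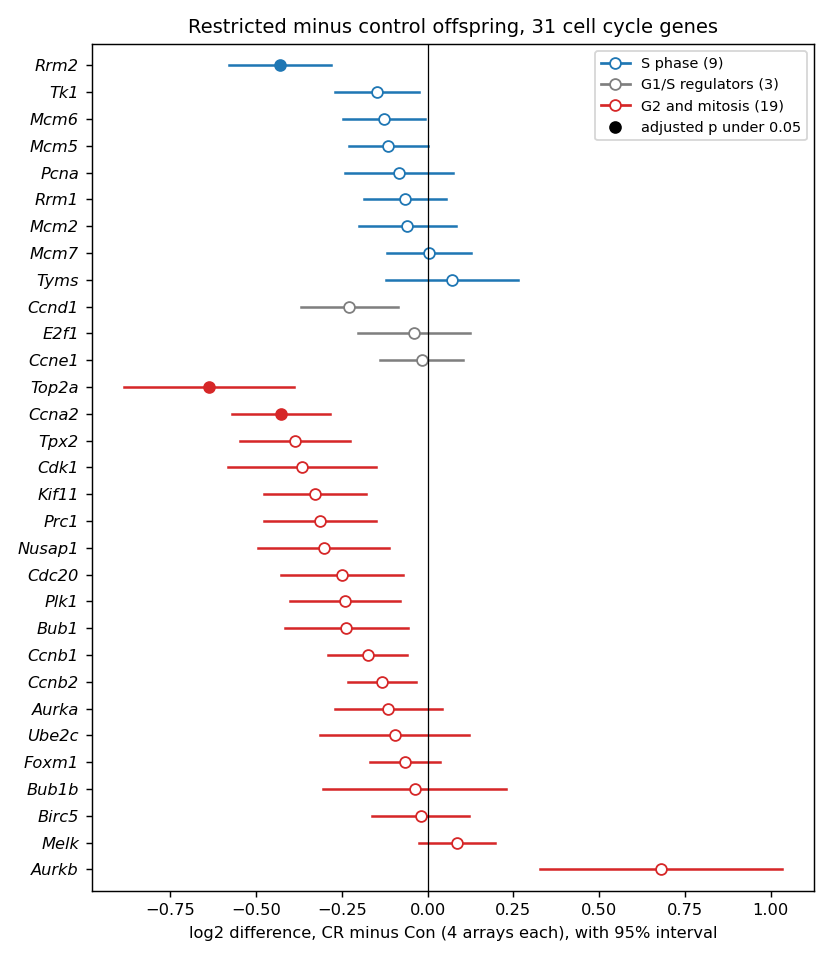
Difference between restricted and control offspring (CR minus Con, log2, 4 arrays each) for the 31 measured genes, with 95% intervals from the limma model; S phase genes are blue, G1/S regulators grey and mitosis genes red, and filled points have an adjusted p under 0.05. The filled points are Rrm2, Top2a and Ccna2, most mitosis genes lie left of 0, and Aurkb lies farthest right, at 0.68.

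Among the S phase genes, Rrm2 fell. It encodes the small subunit of ribonucleotide reductase, the enzyme that makes deoxynucleotides, and its level follows the cell cycle. Its log2 signal was 6.42 and 6.49 in Con-s, 6.63 and 6.37 in Con-l, 5.94 and 6.03 in CR-s, and 6.10 and 6.12 in CR-l. All 4 CR arrays lay below all 4 Con arrays. The averaged diet difference was -0.43 (SE 0.06, limma adjusted p = 0.0336), and a second, dimmer probe set of Rrm2 gave -0.45. Rrm1, the large subunit, whose level varies less over the cycle, had log2 signals of 8.46 to 8.62 in CR and 8.48 to 8.67 in Con. These ranges overlapped, and the difference was -0.07 (SE 0.05, limma adjusted p = 0.587). A second probe set of Rrm1 gave 0.04, but its mean log2 signal (4.66) lay below the olfactory receptor level.

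The other enzymes of deoxynucleotide supply did not pass. Tk1, thymidine kinase, which salvages thymidine, gave 6.19 and 6.07 in Con-s, 6.16 and 6.04 in Con-l, 6.0 and 5.91 in CR-s, and 5.97 and 5.98 in CR-l. The CR arrays were all below the Con arrays by a small margin, with a difference of -0.15 (SE 0.05, limma adjusted p = 0.238). Tyms, thymidylate synthase, which makes thymidylate from deoxyuridylate, had overlapping signals of 7.50 to 7.74 in CR and 7.32 to 7.65 in Con, and its difference was 0.07 (SE 0.08, limma adjusted p = 0.730).

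The replication machinery itself showed small differences. Mcm2, Mcm5, Mcm6 and Mcm7 are subunits of the hexameric helicase that opens DNA at origins, and their diet differences were -0.06, -0.11, -0.13 and 0.00, none past the limma threshold. The largest of these, in Mcm6, came from signals of 6.38 and 6.20 in Con-s, 6.17 and 6.11 in Con-l, 6.11 and 6.06 in CR-s, and 6.08 on both CR-l arrays. Its 2 diets touched at one end, and the limma adjusted p was 0.289. Pcna, the sliding clamp that holds DNA polymerase on its template, was among the brightest probe sets of the set, with 8.69 and 8.73 in Con-s, 8.67 and 8.59 in Con-l, 8.71 and 8.47 in CR-s, and 8.51 and 8.66 in CR-l. Both CR groups held one high and one low array, and the difference was -0.08 (95% interval -0.24 to 0.08, limma adjusted p = 0.611).

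The 3 regulators of G1 and S phase entry did not pass. Ccnd1, cyclin D1, which links growth factor signals to the cycle and is also made outside dividing cells, gave 8.55 and 8.62 in Con-s, 8.76 and 8.67 in Con-l, 8.57 and 8.35 in CR-s, and 8.36 and 8.41 in CR-l. CR-s replicate A lay within the Con range and the other 3 CR arrays below it. The difference was -0.23 (SE 0.06, limma adjusted p = 0.133). Ccne1, cyclin E1, differed by -0.02 (SE 0.05) and E2f1, the transcription factor, by -0.04 (SE 0.07), both with overlapping diets.

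Top2a had the largest fall of the 31. It encodes topoisomerase II alpha, which untangles sister chromatids and is a standard marker of cycling cells. Its log2 signal was 6.34 and 6.57 in Con-s, 6.35 and 6.37 in Con-l, 5.65 and 5.98 in CR-s, and 5.56 and 5.90 in CR-l. All 4 CR arrays lay below all 4 Con arrays, and the CR arrays were spread more widely than the Con arrays. The difference was -0.64 (SE 0.11, limma adjusted p = 0.0449).

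Cyclins and their kinase partner were lower together, with 1 call. Ccna2, cyclin A2, which acts in S phase and G2, gave 5.85 and 5.81 in Con-s, 5.94 and 6.03 in Con-l, 5.60 and 5.41 in CR-s, and 5.38 and 5.53 in CR-l. No CR array reached the lowest Con array, and the difference was -0.43 (SE 0.06, limma adjusted p = 0.0325). Cdk1, the kinase that drives entry into mitosis, gave 5.25 and 5.29 in Con-s, 5.46 and 5.10 in Con-l, 4.88 and 4.97 in CR-s, and 4.77 and 5.02 in CR-l. Its diets did not overlap, yet the 2 Con-l arrays were far apart and the difference of -0.37 (SE 0.09) had a limma adjusted p of 0.120. Ccnb1 and Ccnb2, the B-type cyclins that activate Cdk1, differed by -0.17 and -0.13 (limma adjusted p = 0.153 and 0.195), with no overlap of the diets for Ccnb1 and overlap for Ccnb2, whose second probe set gave -0.12.

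Tpx2, Kif11, Prc1 and Nusap1 act on spindle microtubules, and none of them passed. Tpx2, which nucleates spindle microtubules and activates Aurora A, gave 6.42 and 6.12 in Con-s, 6.36 and 6.37 in Con-l, 5.84 and 5.89 in CR-s, and 6.0 and 5.99 in CR-l. All CR arrays were below all Con arrays, and the difference of -0.39 (SE 0.07) lay just outside the threshold at a limma adjusted p of 0.0513. Kif11, the motor that pushes spindle poles apart, gave 5.60 and 5.35 in Con-s, 5.52 and 5.49 in Con-l, 5.23 and 5.35 in CR-s, and 5.04 and 5.03 in CR-l. Its lowest values were the CR-l arrays, and Con-s replicate B nearly met CR-s replicate B. The difference was -0.33 (SE 0.06, limma adjusted p = 0.0687).

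Prc1, which bundles the microtubules of the central spindle, gave 6.30 and 6.18 in Con-s, 6.04 and 6.33 in Con-l, 6.05 and 6.06 in CR-s, and 5.76 and 5.72 in CR-l. CR-l was low and CR-s touched the Con range, for a difference of -0.31 (SE 0.07, limma adjusted p = 0.0953). Nusap1, a spindle microtubule binding protein, gave 5.92 and 5.56 in Con-s, 5.65 and 5.74 in Con-l, 5.56 and 5.54 in CR-s, and 5.35 and 5.21 in CR-l. Its CR arrays lay just below the lowest Con array, and the difference was -0.30 (SE 0.08, limma adjusted p = 0.139).

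Among mitotic kinases and the checkpoint, Plk1 (polo-like kinase), Bub1 (a checkpoint kinase at the kinetochore) and Cdc20 (the activator of the anaphase-promoting complex) differed by -0.24, -0.24 and -0.25, with limma adjusted p of 0.155, 0.202 and 0.180. Plk1 and Cdc20 had no overlap of the diets and Bub1 had. Aurka (Aurora A) differed by -0.11, Ube2c (the ubiquitin-conjugating enzyme of that complex) by -0.10, Foxm1 (the transcription factor named above) by -0.07, Bub1b (a checkpoint protein) by -0.04 and Birc5 (survivin) by -0.02. These 5 had overlapping diets and limma adjusted p of 0.460 or more. Melk, a kinase with the lowest mean signal of the set, differed by 0.08.

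Aurkb had the largest difference upward, and of the other 18 mitosis genes only Melk was also higher. It encodes Aurora B, the kinase of the chromosomal passenger complex, in which survivin is a partner. Its log2 signal was 7.11 and 6.86 in Con-s, 6.94 and 7.0 in Con-l, 8.20 and 7.46 in CR-s, and 7.51 and 7.45 in CR-l. All 4 CR arrays were above all 4 Con arrays, and CR-s replicate A was the highest by far. The difference was 0.68 (95% interval 0.33 to 1.03, limma adjusted p = 0.0948). It was 0.50 without CR-s replicate A (limma adjusted p = 0.0834) and 0.86 without CR-s replicate B, where the gene passed (limma adjusted p = 0.0363). Only 1 probe set measured it.

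**Figure D3:**
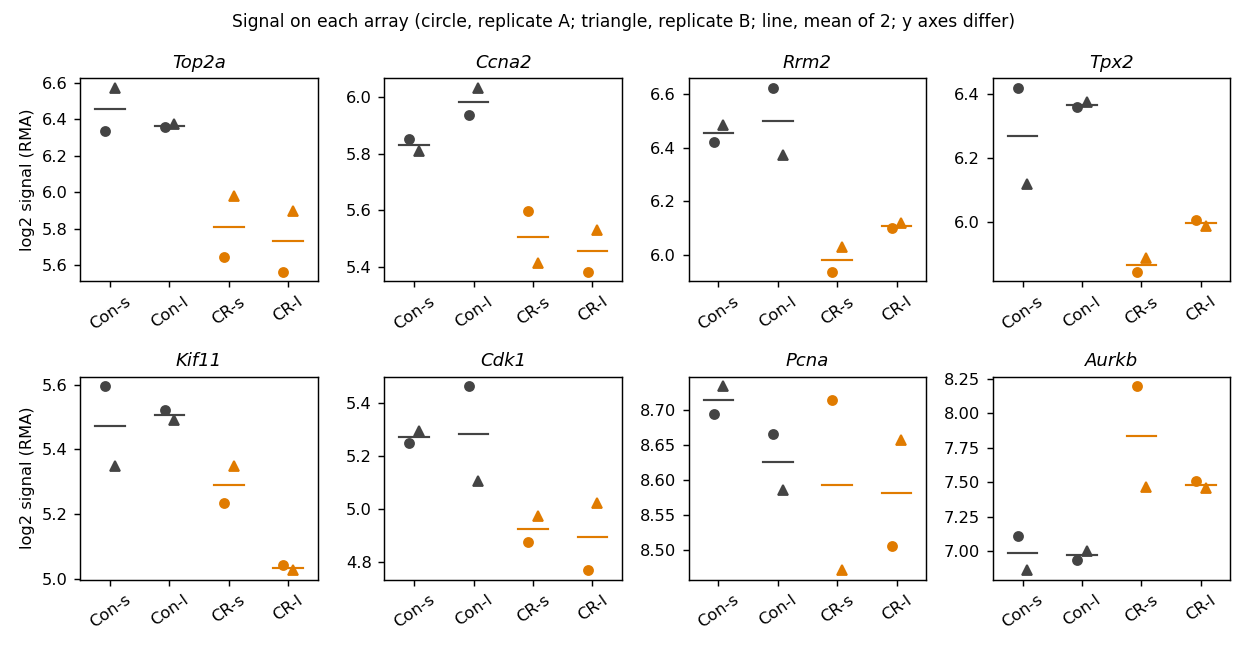
log2 RMA signal of 8 cell cycle genes on each array by group (x axis), with circles for replicate A, triangles for replicate B, lines for the mean of 2, control offspring in grey and restricted offspring in orange; the y axes differ between panels. Top2a, Ccna2, Rrm2, Tpx2, Kif11 and Cdk1 lie lower on all restricted arrays, Pcna overlaps, and Aurkb lies higher, with CR-s replicate A at 8.20.

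The 3 calls were sensitive to single arrays. Rrm2 passed without Con-l replicate B (limma adjusted p = 0.0364) and failed without any of the other 7 arrays (up to 0.136). Ccna2 failed without each of the 8 arrays (0.0673 to 0.113), and so did Top2a (0.0817 to 0.159). The differences themselves moved less, from -0.49 to -0.37 for Rrm2, from -0.47 to -0.38 for Ccna2 and from -0.72 to -0.55 for Top2a.

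The averaged diet difference is the mean of 2 comparisons, CR-s against Con-s and CR-l against Con-l, which share no array. Over the 31 genes, 22 were lower in both comparisons, 3 were higher in both and 6 had opposite signs. The share lower in both was 71.0%, beside 30.9% of all genes. As 27 of the 31 were lower in the average of the same arrays, much of this share was given in advance. For mitosis genes the counts were 15, 2 and 2, and for S phase genes 5, 1 and 3. Of the genes called in the averaged comparison, Top2a was at -0.64 under saline and -0.63 under leptin. Rrm2 was at -0.47 and -0.39, and Ccna2 at -0.33 and -0.53. The called genes were picked for a large average, so the same sign in both parts was largely given in advance. Aurkb, which was not called, was at 0.85 and 0.51.

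Neither comparison called a gene of the set. In CR-s against Con-s, limma called 0 of the 31 and 0% of all genes, with 10 of the 31 lower at an unadjusted p under 0.05, beside 5.1% of all genes, and 1 higher, beside 3.4% of all genes. The smallest limma adjusted p of the set was 0.302, for Rrm2. In CR-l against Con-l, limma called 0 of the 31 and 0.0207% of all genes, with 10 of the 31 lower at an unadjusted p under 0.05, beside 7.27% of all genes, and 1 higher, beside 6.92% of all genes. The smallest limma adjusted p was 0.0819, for Ccna2, followed by 0.102 for Kif11, whose difference under leptin was -0.47 against -0.18 under saline.

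**Figure D4:**
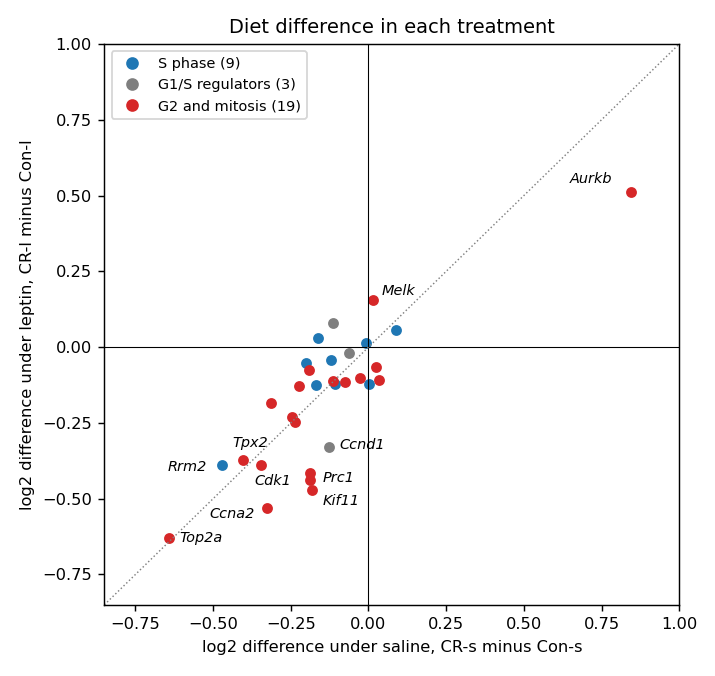
Diet difference under saline (CR-s minus Con-s, x axis) against that under leptin (CR-l minus Con-l, y axis), both in log2 and from 2 against 2 arrays with no array shared; each point is 1 of 31 genes, with S phase genes in blue, G1/S regulators in grey, mitosis genes in red and a dotted line of equality. Most points lie in the lower left, with Top2a on the line, and Aurkb lies farthest to the upper right, with Tyms and Melk also above 0 on both axes.

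The interaction of diet and leptin asks whether the diet difference changed with leptin. Limma called 0 of the 31 and 0% of all genes. At an unadjusted p under 0.05 none of the 31 passed, beside 5.15% of all genes. Kif11 had the smallest p, with an interaction of -0.29 (95% interval -0.59 to 0.01, limma adjusted p = 0.898). For Top2a and Rrm2 the 95% intervals were -0.48 to 0.51 and -0.22 to 0.38 on the log2 scale, so the intervals are wide beside the diet differences themselves.

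Leptin itself moved no gene of the set past the threshold. Averaged over both diets, limma called 0 of the 31 and 0% of all genes, with 2 of the 31 higher at an unadjusted p under 0.05, beside 2.52% of all genes, and 1 lower, beside 2.36% of all genes. Those were Ccnb2 at 0.12 (SE 0.04), Bub1 at 0.22 (SE 0.08) and Prc1 at -0.18 (SE 0.07), each with a limma adjusted p of 0.913. None of the 31 had all 4 leptin arrays on one side of all 4 saline arrays, beside 2.37% of all genes. The median differences were -0.01 for S phase genes and -0.01 for mitosis genes.

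Within the restricted offspring (CR-l against CR-s), limma called 0 of the 31 and 0% of all genes. At an unadjusted p under 0.05, Prc1 (-0.31), Kif11 (-0.26) and Nusap1 (-0.27) were lower with leptin, beside 2.81% of all genes, and Ccnb2 (0.18) and Ccne1 (0.18) were higher, beside 3.05% of all genes. All 5 had a limma adjusted p of 0.808. By group mean, the 3 spindle genes were lowest in CR-l, while Rrm2, Tpx2 and Ccnb2 were lowest in CR-s, and none of these steps passed the test.

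Within the control offspring (Con-l against Con-s), limma called 0 of the 31 and 0% of all genes, and none of the 31 had an unadjusted p under 0.05, beside 4.19% of all genes. Mcm6 (-0.15, SE 0.07) had the smallest p, and Bub1b had the largest difference (0.32, 95% interval -0.06 to 0.70, limma adjusted p = 0.998). The restricted offspring given leptin were also set against the saline controls (CR-l against Con-s). Limma called 0 of the 31 and 0.0138% of all genes, and 12 of the 31 were lower at an unadjusted p under 0.05, beside 6.5% of all genes. Top2a was at -0.72, Prc1 at -0.50, Nusap1 at -0.46 and Kif11 at -0.44, with limma adjusted p of 0.160 or more, and the mitosis median was -0.23. This comparison shares its CR-l arrays and its Con-s arrays with the others above.

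Among the other genes of these pathways, mitosis genes also had larger differences than replication genes, again without a test of the gap. Of 32 further mitosis genes measured, 24 were lower in CR, 9 of them (28.1%) at an unadjusted limma p under 0.05, beside 9.04% of all genes, with a median of -0.09, and 3 fell. None of these passed when any of 7 arrays was left out, and 1 passed without CR-l replicate B. Of the 8 higher genes, Cks1b, which binds cyclin-dependent kinases, was the 1 at an unadjusted p under 0.05, at 0.17 (SE 0.05, limma adjusted p = 0.173), with all 4 CR arrays above all 4 Con arrays. Pttg1, securin, which holds back the separation of sister chromatids, had log2 signals of 6.03 to 6.30 in CR and 6.59 to 6.83 in Con, a difference of -0.59 (SE 0.07, limma adjusted p = 0.0223). Smc4, a condensin subunit that compacts mitotic chromosomes, had 7.03 to 7.25 in CR and 7.47 to 7.58 in Con, a difference of -0.42 (SE 0.06, limma adjusted p = 0.0325). Kif20a, a motor of cytokinesis, differed by -0.31 (SE 0.05, limma adjusted p = 0.0449). All its arrays (4.93 to 5.41) lay below the olfactory receptor level, so the size of this difference is uncertain.

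Of 28 further replication genes, covering origin licensing, polymerases, clamp loading and ligation, 13 were lower and 15 higher, with a median of 0.00 and no call. At an unadjusted limma p under 0.05, 2 were lower (7.1%), beside 9.04% of all genes, and 1 was higher, beside 6.71% of all genes. Cdc6, which loads the helicase at origins, differed by -0.19 (limma adjusted p = 0.197), and Cdt1, its partner, by 0.15 (limma adjusted p = 0.261). Of 15 further G1 cyclins, CDKs and E2F or Myb factors, 12 were lower with a median of -0.07 and no call. Among them were Ccnd2 (-0.19) and Cdc25a (-0.19). At an unadjusted limma p under 0.05, 4 of these 15 were lower (26.7%), beside 9.04% of all genes. That share was near the 28.1% of the 32 further mitosis genes. All 4 CR arrays lay below all 4 Con arrays for 4 of the 15 and 7 of the 32, beside 6.67% of all genes. Of 17 inhibitors and brakes of the cycle, 11 were lower with a median of -0.02 and no call, with Cdkn2c at -0.24 and Ccng2 at -0.20.

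The lists were also summarised by the mean of their genes on each array, taken relative to the Con-s mean of each gene. For the 19 mitosis genes this mean was 0.06 and -0.06 in Con-s, 0.02 and 0.03 in Con-l, -0.16 and -0.14 in CR-s, and -0.21 and -0.16 in CR-l. For the 9 S phase genes it was -0.02 and 0.02 in Con-s, 0.01 and -0.06 in Con-l, -0.10 and -0.15 in CR-s, and -0.10 and -0.13 in CR-l. By this mean both lists were lower on every CR array than on any Con array. The S phase mean includes Rrm2, whose diet difference (-0.43) was far larger than the next, of Tk1 (-0.15). By the median of its genes the S phase list overlapped, with CR-s replicate A at -0.06 and Con-l replicate B at -0.08. The 32 further mitosis genes lay at -0.15 to -0.10 in CR and -0.01 to 0.01 in Con, while the 28 further replication genes overlapped, at -0.04 to 0.00 in CR and -0.05 to 0.01 in Con. The mean over all genes stayed within -0.01 and 0.01.

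**Figure D5:**
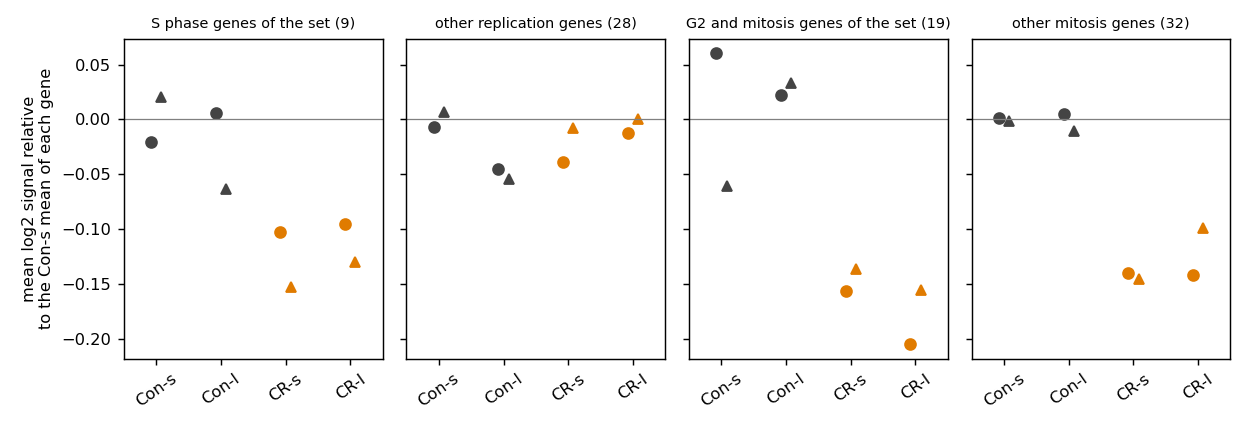
Mean log2 signal of 4 gene lists on each array relative to the Con-s mean of each gene, by group, with circles for replicate A, triangles for replicate B, control offspring in grey and restricted offspring in orange. By these means both mitosis lists and the S phase genes of the set are lower on all CR arrays, and the 28 further replication genes overlap between the diets.

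Markers of several cell types moved with the same diet difference. In whole tissue, fewer cells of a type and less RNA per cell cannot be told apart. For oligodendrocyte precursors, a main dividing population at this age, 6 of 10 markers were lower in CR and none passed. Their summed linear signal was 8032 and 8296 in CR-s, 7946 and 9063 in CR-l, and 8554 to 8963 in Con. The diets overlapped through 1 CR-l array, and the other CR arrays lay below all Con arrays. For neural progenitors and immature neurons, 4 of 9 were lower and none passed, with sums of 3976 to 4536 in CR and 4161 to 4653 in Con. For microglia, 5 of 9 were lower and none passed, with sums of 3908 to 4228 in CR and 3952 to 4254 in Con. For tanycytes and ependyma, 2 of 7 were lower and none passed, with sums of 1079 to 1154 in CR and 1063 to 1165 in Con. The sums of these 4 lists overlapped between the diets.

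Other marker lists differed more. All 11 markers of myelinating oligodendrocytes were lower and 3 fell, with sums of 39690 to 43130 in CR and 45610 to 50210 in Con. All 12 markers of the meninges were lower and 5 fell, with sums of 2387 to 2823 in CR and 3346 to 4564 in Con. Of 7 red blood cell markers, 6 were lower and 5 fell, with sums of 1939 to 2752 in CR and 4359 to 6316 in Con. Of 8 astrocyte markers 6 were lower and 2 fell (sums of 16670 to 18110 in CR and 18490 to 19330 in Con). Of 11 markers of endothelium and mural cells 8 were lower and 2 fell (sums of 5993 to 6176 in CR and 6576 to 6941 in Con). Those 2 were the mural markers Rgs5 (-0.38), the brightest gene of the list, and Tagln (-0.35). The list median was only -0.05, and 3 genes were higher, among them the endothelial Flt1 (0.01) and Slc2a1 (0.04). The sums of these 5 lists did not overlap between the diets. No marker was at 0, the lowest log2 signal of any marker on any array being 4.66, for Ahsp. The part of these cell types in the differences of the cell cycle genes was not tested.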

How the data were processed

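The authors deposited linear intensities, 1 per probe set and array. Per the submitters' processing notes they come from RMA (Affymetrix Expression Console, version not stated in these notes). They were log2-transformed here and not normalized again. Of 29215 probe sets, 15310 carried 1 gene symbol, 323 carried several and were not named, and 527 genes had several probe sets, of which the brightest by mean over the 8 arrays was kept, which favours the better measured probe set. No filter on dim genes was applied.

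All comparisons came from 1 limma model of the 4 group means (limma 3.58.1, R 4.3.3, lmFit and eBayes, 4 residual and 3.21 prior degrees of freedom), two-sided, with Benjamini-Hochberg adjustment over 14506 genes and a threshold of 0.05. The fit was tested on simulated data. The number of arrays limits the precision. Promoters came from RefSeq (GRCr8). Named genes were all 34 of the set, every other listed gene past the threshold, and the 2 per direction with the smallest p in each other list (not every one is printed). The genes and lists were chosen with earlier results of these data known. The replicate letters A and B were not treated as pairs in the main model. Between groups, correlations of the A deviations from their group means ran from -0.06 to 0.11. Such correlations cannot settle whether the letters mark a shared batch or litter.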

Additional observations from a re-analysis of the deposited data

Results flagged for a closer look

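In 62 groups of 4 arrays (31 genes in each diet), 4 held an array whose gap to the others exceeded Dixon's 95% critical value for 4 samples, and chance would give about 3.1. Aurkb in the CR arrays had a gap of 0.93 of its range, with CR-s replicate A at 8.20 on the log2 scale and the other 3 arrays at 7.45 to 7.51. Rrm1 in the Con arrays had a gap of 0.867, with Con-l replicate B at 8.48 below the others at 8.64 to 8.67. Top2a in the Con arrays had a gap of 0.854, with Con-s replicate B at 6.57 above the others at 6.34 to 6.37. Tyms in the Con arrays had a gap of 0.849, with Con-s replicate A at 7.32 below the others at 7.60 to 7.65. A different array stood out each time.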

How the results depend on the processing

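With 2 arrays per group and many dim probe sets, calls for single genes are fragile. In the averaged diet comparison 3 cell cycle genes passed. The count was 7 with a trended and robust variance prior, 5 among the 23 genes brighter than the olfactory receptor gauge (an alternative added after seeing the data), 1 with the replicate block (Top2a), 0 when all probe sets were tested together, and 0 to 1 when each array was left out in turn, while the other settings gave 2 to 4. The olfactory receptor gauge used the mean over all 8 arrays, and Top2a, Ccnb1 and Plk1 passed it through their higher Con arrays. With the trended and robust prior, CR-l against Con-l gave 3 calls and CR-l against Con-s gave 1. With 16 added to the values before log2, CR-l against Con-l gave 1. Each of these counts was 0 in the main model. The replicate block changed no other call count.

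The filter to the upper 60% of genes by mean left only Aurkb and Foxm1 of the mitosis genes, and their median was then 0.31 for the averaged diet difference, 0.41 for CR-s against Con-s, 0.20 for CR-l against Con-l, -0.20 for CR-l against CR-s, 0.21 for CR-l against Con-s, -0.093 for leptin and -0.20 for the interaction. It left 4 S phase genes, with a median of -0.060 for CR-s against Con-s. Brighter than the olfactory receptor gauge, the mitosis median was -0.15 for diet and -0.12 for CR-l against Con-l. With 16 added it was -0.17 for diet and -0.18 for CR-l against Con-s, and with cyclic loess 0.016 for CR-l against CR-s. Leaving out each array, where the remaining array of its group is assumed to vary like the others, the mitosis median ran from -0.23 to -0.17 for diet, -0.25 to -0.076 for CR-s against Con-s, -0.26 to -0.17 for CR-l against Con-l, -0.071 to 0.044 for CR-l against CR-s, -0.045 to 0.098 for Con-l against Con-s, -0.23 to -0.058 for CR-l against Con-s and -0.12 to 0.023 for the interaction. The S phase median ran from -0.14 to -0.063 for diet, -0.20 to -0.060 for CR-s against Con-s and 0.0014 to 0.11 for the interaction. The cause of these changes was not tested, except that the filter leaves fewer genes. No tested difference that passed changed sign under any setting run.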
